A study of Homo sapiens with 5 samples.

Results

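Plakoglobin (*JUP*), the catenins *CTNNB1*, *CTNNA1*, and *CTNND1*, the β-catenin inhibitor *CTNNBIP1*, and the WNT pathway genes *AXIN1*, *APC*, and *TCF7L2* were followed in TF-1 cells with and without knockout of *MTSS1*. These 8 genes, of 27328 in the count table, were taken by gene symbol. They were chosen by the knockout and control levels of *JUP*, which stood out in earlier results of the same libraries, together with the known partners of its product. The knockout and control values of all 8 are therefore given as a description and without a test.

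TF-1 is an established human erythroleukaemia line that is widely used as a model of AML. Cells of both groups were transduced with a lentivirus carrying *Cas9* and an sgRNA, and single-cell clones were raised from them. As controls, 2 libraries were made from the pools sgCtrl 1 and sgCtrl 2, with a guide against *renilla luciferase*. The 3 knockout libraries were made with a different *MTSS1* guide each, and knockout pools 1, 2, and 3 stand for sgMTSS1_1, sgMTSS1_2, and sgMTSS1_3. Every pool held 4 clones of the same guide, so that a replicate is a pool, and a change in a few clones and a smaller change in all clones of a pool cannot be told apart. P-values measure the spread between these pools. A further sgCtrl pool and the sgMTSS1_4 pool, which the study left out after an outlier test, were not analysed here. The spread between pools, and the SDs, SEs, and p-values that rest on it, may therefore be too small.

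Catenins join the cytoplasmic tails of cadherins to the actin cytoskeleton at adherens junctions. β-catenin, encoded by *CTNNB1*, and its close relative plakoglobin bind the same stretch of classical cadherins, α-catenin (*CTNNA1*) links them to actin, and p120-catenin (*CTNND1*) binds nearer to the membrane and stabilizes the cadherin at the cell surface. Plakoglobin is in addition a component of desmosomes. β-catenin that is not bound to cadherin is phosphorylated in a complex built on AXIN1 and APC and is then degraded. When a WNT ligand stops this degradation, β-catenin enters the nucleus and binds TCF/LEF factors such as TCF7L2, a step that the small protein ICAT, encoded by *CTNNBIP1*, blocks by occupying β-catenin. In AML, *JUP* and *CTNNB1* are known for supporting self-renewal of leukaemic progenitors.

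Sequences are shown upstream of annotated starts of the 3 genes with the largest differences between the groups. *JUP* and *CTNNBIP1* are among the genes that were higher, and *TCF7L2* is among those that were lower. *JUP* and *TCF7L2* have further annotated starts, and for them the most upstream start is shown. Which start these mRNAs use was not tested. Each run holds the 250 bases before an annotated RefSeq start on GRCh38.p14, written 5′ to 3′ on the strand of the gene. Capitals mark the GC box, GGGCGG on either strand, to which SP factors are known to bind; neighbouring boxes may share bases. The *JUP* run lies at chr17:41786712-41786961 and the *CTNNBIP1* run at chr1:9910270-9910519, both on the minus strand, and the *TCF7L2* run lies at chr10:112949997-112950246 on the plus strand. GENCODE places the outermost start of *JUP* and of *CTNNBIP1* within these runs.
JUP: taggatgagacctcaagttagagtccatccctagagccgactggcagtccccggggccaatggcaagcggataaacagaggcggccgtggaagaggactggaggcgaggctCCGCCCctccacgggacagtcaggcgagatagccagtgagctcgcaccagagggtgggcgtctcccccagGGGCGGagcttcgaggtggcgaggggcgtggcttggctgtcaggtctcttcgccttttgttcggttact
CTNNBIP1: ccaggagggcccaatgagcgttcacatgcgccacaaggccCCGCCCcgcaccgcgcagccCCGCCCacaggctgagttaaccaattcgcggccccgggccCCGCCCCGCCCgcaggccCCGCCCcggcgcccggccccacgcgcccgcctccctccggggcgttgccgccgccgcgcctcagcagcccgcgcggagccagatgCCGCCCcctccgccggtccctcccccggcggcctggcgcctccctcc
TCF7L2: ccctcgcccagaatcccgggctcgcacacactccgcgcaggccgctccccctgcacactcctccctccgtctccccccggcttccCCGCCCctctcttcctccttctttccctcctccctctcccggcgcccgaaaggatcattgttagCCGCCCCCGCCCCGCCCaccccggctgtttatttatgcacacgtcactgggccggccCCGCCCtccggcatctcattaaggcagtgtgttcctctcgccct

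RefSeq start windows, from 250 bases before to 50 bases after a start, were found for 7 of the 8 genes, with 14 windows in all. Those shown for *JUP*, *CTNNBIP1*, and *TCF7L2* all lie in GC-rich DNA, with 65.3%, 80.7%, and 65.7% G and C over the 300 bases. They hold 23, 42, and 25 CpG dinucleotides. The medians over all 35116 human windows were 58.7% and 14. The *JUP* window not shown had 66.7% G and C, 19 CpG dinucleotides, and no GC box. The *TCF7L2* windows not shown were poorer, with 42.7% and 48.7% G and C, 7 and 5 CpG dinucleotides, and no GC box. The GC box occurred in 8 of the 14 windows and in at least 1 window of each of the 7 genes, and in 45.0% of all windows. The core of the TCF/LEF recognition site, CTTTGA on either strand, can share at most 1 base with it. This core occurred in 2 windows, both of *CTNNA1* and overlapping each other, and in 12.9% of all windows. No match was found in the windows of *JUP*, *CTNNBIP1*, or *TCF7L2*, which says only that these letters are not in the 300 bases searched.

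Libraries were made with a QuantSeq 3′ kit, which yields reads from the 3′ end of an mRNA. Counts follow the number of mRNA molecules and not their length, so that levels can be compared roughly between genes. Whether the 3′ ends of different genes were captured and counted equally well was not checked. Levels are given here as CPM, a gene's counts relative to the library total, scaled with TMM factors. Control libraries held 2849979 and 3408827 counts and knockout libraries 5442639 to 8854899, so that every knockout library was deeper than both controls, and 3 counts corresponded to 0.389 to 0.938 CPM. Ribosomal protein genes took 7.09% and 8.71% of the counts in the control libraries and 11.0% to 16.5% in the knockout libraries, and mitochondrially encoded genes took 13.9% and 8.63% against 6.71% to 7.44%, with control pool 1 the highest. The part of these shifts in the results was not tested. A gene is termed called where edgeR gave an adjusted p below 0.05 with an absolute log2-fold change over 1. All 13 markers of TF-1 cells were above the filter on low counts, and *CD34*, *KLF1*, and *HBG2* were the most abundant of them. *MTSS1* itself was measured at 204 and 87.9 CPM in control pools 1 and 2 and at 104, 139, and 49.9 CPM in knockout pools 1, 2, and 3, with a log2-fold change of −0.58 (SE 0.47) that was not significant (edgeR, adjusted p = 0.494). The groups overlapped. Reads come from the 3′ end of an mRNA, which an edit in the coding sequence need not remove. The 3′ end of *MTSS1* also lies within *NDUFB9* on the opposite strand. For these reasons the mRNA value does not check the labels. According to the study, the pooled knockout clones had lost MTSS1 protein on immunoblots.

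The plakoglobin gene (*JUP*, ENSG00000173801, chr17:41754604-41786931, minus strand on GRCh38) was measured at 13.1 and 23.8 CPM in control pools 1 and 2 and at 191, 230, and 273 CPM in knockout pools 1, 2, and 3. All knockout pools were far above both control pools. The mean was 18.5 ± 7.57 CPM (SD, n = 2) in the control and 231 ± 40.7 CPM (SD, n = 3) in the knockout, a log2-fold change of 3.64 (SE 0.40), or 12.5-fold. These values rest on 42 and 80 counts in the control libraries and on 1273 to 1568 counts in the knockout libraries. Among all tested genes ordered by level, *JUP* moved from percentile 55.3 in the control to percentile 94.7 in the knockout, and its log2-fold change was in place 113 of 14391. In proportion, the control pools differed more from each other than the knockout pools did, and the log2-fold change was 3.29 without control pool 1 and 4.16 without control pool 2. No annotated gene overlaps *JUP*.

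β-catenin mRNA (*CTNNB1*, ENSG00000168036, chr3:41194741-41260096, plus strand) was more even. It was found at 67.5 and 72.1 CPM in control pools 1 and 2 and at 112, 112, and 124 CPM in knockout pools 1, 2, and 3. The groups did not overlap, with means of 69.8 ± 3.24 CPM (SD, n = 2) and 116 ± 7.17 CPM (SD, n = 3). The log2-fold change was 0.73 (SE 0.28), or 1.66-fold. The 3′ end of *CTNNB1* lies within *ULK4* on the opposite strand. Whether counting used strand is not given in the sources used here, but *ULK4* held only 21 to 41 counts per library, against 216 to 861 for *CTNNB1*.

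Plakoglobin and β-catenin compete for the same cadherin site, and the balance between their mRNAs turned over. *JUP* supplied 16.3% of the counts of both genes in control pool 1 (95% Wilson interval 12.3 to 21.3) and 24.8% in control pool 2 (20.4 to 29.8). In knockout pools 1, 2, and 3 it supplied 63.2% (61.2 to 65.1), 67.2% (65.1 to 69.3), and 68.7% (66.8 to 70.6). *CTNNB1* was thus the more abundant mRNA in each control library and *JUP* in each knockout library. This share is taken within a library and does not depend on the scaling between libraries. Because *JUP* was chosen by its levels in these groups, the change in the share follows from values given above and adds no support. Counting error is all these intervals cover, and PCR copies of a molecule are not independent counts.

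The catenins that do not signal through TCF/LEF factors showed small differences. α-catenin mRNA (*CTNNA1*, ENSG00000044115, chr5:138610967-138935034, plus strand) was found at 82.5 and 51.9 CPM in control pools 1 and 2 and at 74.1, 64.8, and 56.2 CPM in knockout pools 1, 2, and 3. All 3 knockout values lay between those of the controls, and the log2-fold change of −0.05 (SE 0.32) became 0.34 without control pool 1 and −0.32 without control pool 2. A processed pseudogene lies within the span of *CTNNA1* on the same strand and is not among the rows of the table used here. Whether it shares sequence with *CTNNA1* was not examined. p120-catenin mRNA (*CTNND1*, ENSG00000198561, chr11:57753243-57819546, plus strand) was found at 50.7 and 52.2 CPM in control pools 1 and 2 and at 39.6, 41.5, and 45.8 CPM in the knockout pools in the same order. The knockout pools were lower than both controls, but by little, with a log2-fold change of −0.28 (SE 0.28). The share of *CTNNA1* in the counts of *CTNNA1* and *CTNNB1* came to 55.0% and 41.8% in control pools 1 and 2 and to 39.9%, 36.7%, and 31.1% in knockout pools 1, 2, and 3.

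**Figure D1:**
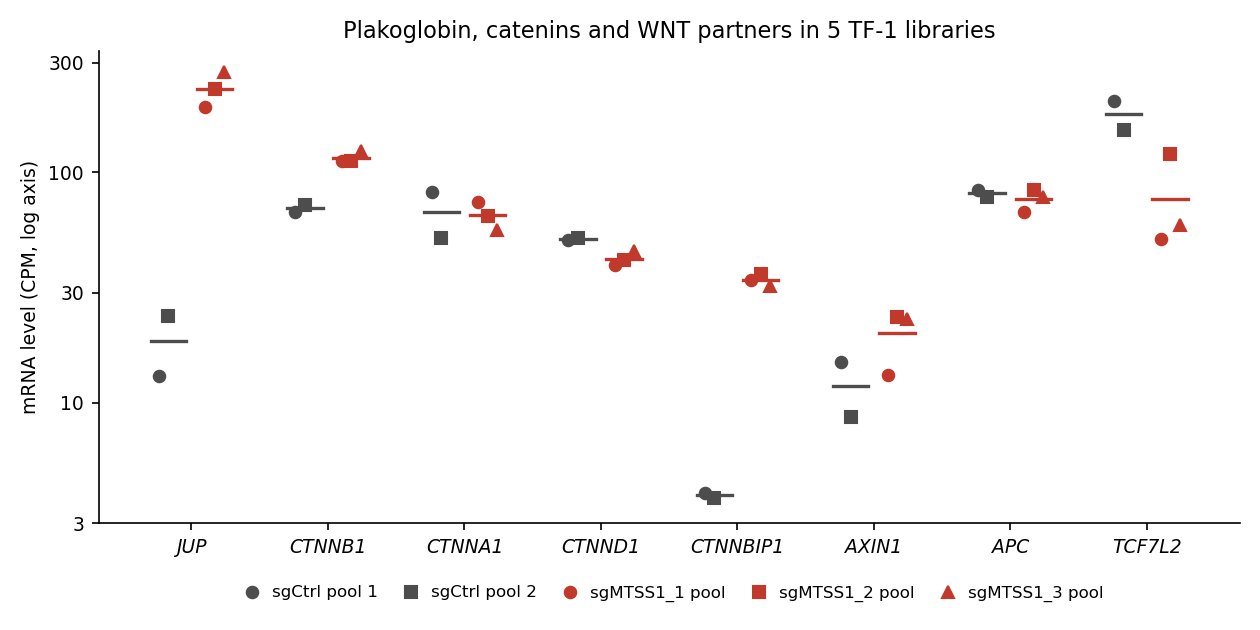
Level of each of the 8 genes in the 5 libraries, in CPM on a logarithmic axis. Each point is 1 library, control pools are gray, knockout pools are red, and horizontal bars are group means; *JUP*, *CTNNBIP1*, and *CTNNB1* have all red points above both gray points, *TCF7L2* and *CTNND1* all below, and the other 3 genes overlap.

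*CTNNBIP1* (ENSG00000178585, chr1:9848276-9910336, minus strand), the gene of the β-catenin inhibitor ICAT, was the second gene with a large difference. It was found at 4.06 and 3.87 CPM in control pools 1 and 2 and at 34.2, 36.3, and 32.2 CPM in knockout pools 1, 2, and 3. Both groups were tight, with means of 3.97 ± 0.135 CPM (SD, n = 2) and 34.2 ± 2.05 CPM (SD, n = 3), and the difference was 8.58-fold, or 3.10 (SE 0.36) on the log2 scale. The control values rest on 13 counts in each library, so that counting error alone exceeds the spread seen between these 2 pools. The gene moved from percentile 22.1 of all tested genes in the control to percentile 67.4 in the knockout. Of the 2 lncRNA genes that overlap it on the opposite strand, 1 is in the count table and held at most 1 count in any library.

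Relative to its binding partner β-catenin, the inhibitor also gained. *CTNNBIP1* made up 5.68% (95% Wilson interval 3.35 to 9.47) and 5.10% (upper bound 8.53) of the counts of *CTNNBIP1* and *CTNNB1* in the control pools, and 23.5%, 24.5%, and 20.6% in knockout pools 1, 2, and 3. *CTNNB1* nevertheless stayed the more abundant mRNA of this pair in all 5 libraries. The change in this share, too, follows from levels given above and adds no support.

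**Figure D2:**
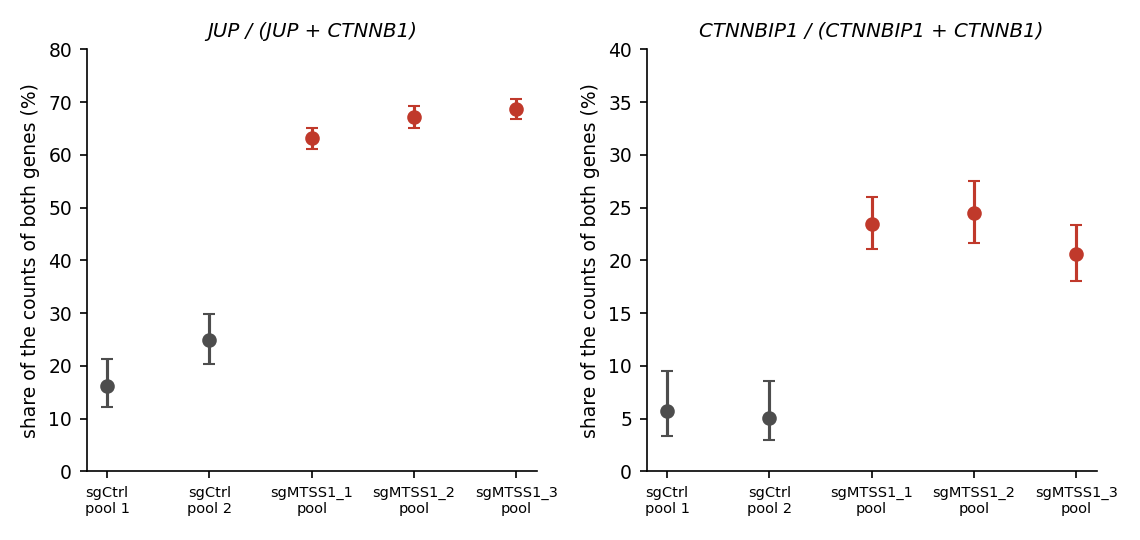
Share of *JUP* in the counts of *JUP* and *CTNNB1* (left) and share of *CTNNBIP1* in the counts of *CTNNBIP1* and *CTNNB1* (right) in each library, in percent, with 95% Wilson intervals that cover counting error only. On the left, control pools lie at 16.3% and 24.8% and knockout pools at 63.2% to 68.7%; on the right, control pools lie at 5.10% and 5.68% and knockout pools at 20.6% to 24.5%.

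*TCF7L2* (ENSG00000148737, chr10:112950247-113167678, plus strand), which encodes a TCF factor that takes β-catenin to WNT target genes, differed in the other direction. It was found at 204 and 153 CPM in control pools 1 and 2 and at 51.6, 120, and 59.2 CPM in knockout pools 1, 2, and 3. All knockout pools were below both controls, but knockout pool 2 lay closer to control pool 2 than to the other knockout pools. The means were 179 ± 36.3 CPM (SD, n = 2) and 76.9 ± 37.5 CPM (SD, n = 3). This is a log2-fold change of −1.22 (SE 0.39), or 2.32-fold lower. The log2-fold change was −1.64 without knockout pool 2 and −0.98 without control pool 1. *TCF7L2* had the highest level of the 8 genes in both control pools, and *JUP* in all 3 knockout pools.

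The scaffold genes of the destruction complex were not set apart by group. *AXIN1* (ENSG00000103126, chr16:287440-352723, minus strand) was found at 15.0 and 8.64 CPM in control pools 1 and 2 and at 13.2, 23.6, and 23.1 CPM in knockout pools 1, 2, and 3. Knockout pool 1 lay between the controls and the other knockout pools above both, and the log2-fold change of 0.76 (SE 0.41) became 0.44 without control pool 2 and 1.21 without control pool 1. *APC* (ENSG00000134982, chr5:112707518-112846239, plus strand) was found at 84.1 and 78.4 CPM in the control and at 67.3, 83.6, and 78.1 CPM in the knockout pools, with a log2-fold change of −0.09 (SE 0.28). Knockout pool 2 lay between the controls and the other knockout pools below both. The 3′ end of *APC* is shared with a readthrough gene on the same strand that is not among the rows of the table used here.

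The 8 genes thus kept no common course. All 8 passed the filter on low counts. Calls are not counted for them, because they were chosen with this contrast known. Over all 14391 tested genes 5.18% were called, 4.17% as higher and 1.01% as lower. All knockout pools were above both control pools for 3 of the 8 genes and below both for 2, while over all tested genes this held for 22.2% and 19.2%. Their log2-fold changes had a median of 0.34, against −0.03 for all tested genes. These counts come from the contrast in view when the genes were chosen, and nothing is read from them.

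Ordered by mean level in the control pools, the genes ran *TCF7L2*, *APC*, *CTNNB1*, *CTNNA1*, *CTNND1*, *JUP*, *AXIN1*, and *CTNNBIP1*. The range of *CTNNA1* overlapped those of *APC*, *CTNNB1*, and *CTNND1*, and the ranges of *JUP* and *AXIN1* overlapped. In the knockout pools the order was *JUP*, *CTNNB1*, *TCF7L2*, *APC*, *CTNNA1*, *CTNND1*, *CTNNBIP1*, and *AXIN1*, and the ranges of *TCF7L2*, *APC*, and *CTNNA1* overlapped one another, as did those of *CTNNB1* and *TCF7L2*. *JUP* thus moved from the sixth place to the first. Together the 8 genes had 521 and 444 CPM in the control and 583, 712, and 692 CPM in the knockout pools. Without *JUP* and *CTNNBIP1*, the other 6 summed to 504 and 416 CPM in the control and to 357, 446, and 387 CPM in the knockout pools, and the groups overlapped.

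The partners of these proteins were examined in 9 lists of 158 gene symbols, of which 129 were in the table and 92 were tested. Of the 92, 4 rose in the knockout and none fell at these thresholds, which is 4.35% against 5.18% of all tested genes, while 18 (19.6%) had an unadjusted p below 0.05, against 23.3% of all tested genes. DESeq2 called the same 4 and *DVL1* in addition. The median log2-fold change of the 92 was −0.01, with 44 above 0 and 48 below. Without knockout pool 1, 2, or 3, edgeR called none of the 89, 89, and 90 list genes then tested, while 16, 13, and 12 had an unadjusted p below 0.05, and over all genes the 745 calls fell to 111, 347, and 191. The log2-fold changes of the 4 genes without these pools were 2.43 to 2.61 (*ZYX*), 1.61 to 1.73 (*CTBP1*), 1.49 to 1.81 (*BIRC5*), and 1.13 to 1.35 (*CSNK1G1*).

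The first of these 4 genes was *ZYX*, an actin-binding LIM protein of cell junctions and focal adhesions. It was found at 13.4 and 4.47 CPM in control pools 1 and 2 and at 38.7, 56.0, and 54.1 CPM in knockout pools 1, 2, and 3. The groups did not overlap, and *ZYX* rose by a log2-fold change of 2.47 (SE 0.47, edgeR, adjusted p = 0.0221), which became 3.47 without control pool 1 and 1.91 without control pool 2. Of the 12 tested genes for adherens junction linkers it was the 1 gene called, and the median of this list was 0.26. The highest level in the list was that of *PTPN1*, a phosphatase that acts on β-catenin, at 583 and 324 CPM in the control and 610, 752, and 797 CPM in the knockout pools. For the actin crosslinkers *ACTN1* and *ACTN4*, log2-fold changes were 0.71 (SE 0.32) and −0.13 (SE 0.32). Neither was called.

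*CTBP1*, which encodes a corepressor that can act at WNT target genes, was found at 42.2 and 31.3 CPM in control pools 1 and 2 and at 94.2, 123, and 122 CPM in knockout pools 1, 2, and 3. It rose by 1.62 on the log2 scale (SE 0.32, edgeR, adjusted p = 0.0237), with no overlap of the groups. Its 3′ end is overlapped by an antisense gene that is not among the rows of the table used here. *CTBP1* was the 1 call among 19 tested TCF/LEF factors and nuclear cofactors, whose median was −0.27. The most abundant of them were the chromatin proteins *SMARCA4*, *PARP1*, and *CHD8*, with log2-fold changes of −0.32 (SE 0.38), −0.27 (SE 0.36), and −0.65 (SE 0.29). None of these 3 was called, although all knockout pools were below both controls for *CHD8*. *LEF1*, the TCF/LEF factor of lymphoid and myeloid progenitors, was found at 22.5 and 14.3 CPM in the control and at 15.2, 15.7, and 13.6 CPM in the knockout pools, and the groups overlapped.

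Of 10 tested WNT target genes, *BIRC5* was called. Its product, survivin, inhibits apoptosis and acts in mitosis, and the gene is highest in dividing cells. *BIRC5* was found at 102 and 53.0 CPM in control pools 1 and 2 and at 297, 228, and 209 CPM in knockout pools 1, 2, and 3, a rise of 1.66 on the log2 scale (SE 0.38, edgeR, adjusted p = 0.0380). The median of the target genes was −0.15. *MYC*, a WNT target and proto-oncogene, was found at 90.4 and 61.7 CPM in the control and at 43.2, 35.6, and 34.3 CPM in the knockout pools. All knockout values were lower, with a log2-fold change of −1.01 (SE 0.30) that did not pass the test (edgeR, adjusted p = 0.0847). Without control pool 2, *MYC* was called as lower and *BIRC5* was not called. The adhesion receptor *CD44* had a log2-fold change of 0.59 (SE 0.35), and its groups overlapped. *AXIN2*, *LGR5*, *NOTUM*, *DKK1*, *ASCL2*, *APCDD1*, and *MMP7*, further widely used target genes, were in this list as well. They are not among the rows of the table used here, so no level can be given for them.

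*CSNK1G1*, a casein kinase 1 gene, was the 1 call among 18 tested genes around the destruction complex. It was found at 40.3 and 38.4 CPM in control pools 1 and 2 and at 101, 79.4, and 94.1 CPM in knockout pools 1, 2, and 3, and rose by 1.22 on the log2 scale (SE 0.29, edgeR, adjusted p = 0.0457). Of the 4 calls it stood nearest to the threshold, and its adjusted p rose above 0.05 under 8 of 13 alternatives, while its log2-fold change stayed at 1.07 to 1.37 in all of them. *CSNK1A1*, the casein kinase that primes β-catenin for degradation, was found at 227 and 216 CPM in the control and at 125, 144, and 143 CPM in the knockout pools. All knockout pools were lower, but the log2-fold change of −0.69 (SE 0.27) did not pass the test (edgeR, adjusted p = 0.169). The deubiquitinase *USP7* and the phosphatase subunit *PPP2CA*, which are also abundant, had log2-fold changes of −0.01 (SE 0.31) and −0.27 (SE 0.28). The median of the list was −0.07.

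The cadherins that catenins bind at cell contacts had low counts in both groups. Of 14 cadherin genes in the table, 1 was tested, and all 14 together had 7.52 to 10.4 CPM in every library of either group. E-cadherin (*CDH1*), the best-known partner of plakoglobin and β-catenin in epithelia, held 0 and 2 counts in the control libraries and 4, 1, and 1 counts in knockout libraries 1, 2, and 3. These counts are too low for a fold change. The tested cadherin, *CELSR2*, had a log2-fold change of −0.91 (SE 0.55) and was not called.

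Among desmosome genes, 5 were tested and none was called by edgeR, 0 had an unadjusted p below 0.05, and DESeq2 called none. The desmosomal cadherin *DSC2* was the most abundant, at 80.7 and 59.6 CPM in control pools 1 and 2 and at 62.3, 93.2, and 81.6 CPM in knockout pools 1, 2, and 3. Its groups overlapped, and the log2-fold change was 0.17 (SE 0.31). Its relative *DSG2* and the plaque protein gene *DSP*, whose product binds plakoglobin, had log2-fold changes of 0.33 (SE 0.44) and −0.11 (SE 0.62), and their groups overlapped as well. Of 5 other tested genes for catenins and armadillo proteins none was called, 0 had an unadjusted p below 0.05, and DESeq2 called none. *CTNNBL1*, *PKP4*, and *CTNNAL1*, the most abundant of them, had log2-fold changes of 0.23 (SE 0.35), 0.06 (SE 0.32), and −0.53 (SE 0.33).

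Markers of epithelial cells, in which plakoglobin is abundant, were examined beside these results. Of 8 markers 5 were in the table and 3 were tested, and the 5 summed to 71.3 and 141 CPM in the control and to 151 to 167 CPM in the knockout pools, mostly from *KRT18*. *CDH1* and *EPCAM*, which define epithelial cells, held at most 4 counts in any library. The 3 lymphoid markers in the table summed to 7.82 and 12.8 CPM in the control and to 4.15 and 4.51 CPM in knockout pools 1 and 2, and knockout pool 3 lay between the control pools. Of the 5 stromal and endothelial markers in the table, *PECAM1*, which haematopoietic cells express as well, made up nearly all the level, and the collagen genes held at most 4 counts in any library.

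Genes at the start of the WNT pathway held no call. Of 19 WNT ligands 5 were tested, with a median log2-fold change of −0.70. *WNT5B* had the highest level, at 52.5 and 93.6 CPM in control pools 1 and 2 and at 14.0, 35.0, and 38.5 CPM in knockout pools 1, 2, and 3. All knockout values were below both controls, with a log2-fold change of −1.33 (SE 0.44), and the test was not passed (edgeR, adjusted p = 0.113). *WNT10B* was found at 2.19 and 4.17 CPM in the control and at 7.91, 11.4, and 9.40 CPM in the knockout pools. All knockout values were above both controls, with a log2-fold change of 1.57 (SE 0.47), and this test was not passed either (edgeR, adjusted p = 0.0855). *WNT2B* and *WNT9B* were measured at or below 4.77 CPM in every library. None of the 5 ligands was called by edgeR, 2 had an unadjusted p below 0.05, and DESeq2 called none.

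Of 20 tested WNT receptors and transducers none was called by edgeR, 5 had an unadjusted p below 0.05, and DESeq2 called 1. The median log2-fold change was 0.12, and −0.02 when libraries were scaled by their totals alone. The receptor gene *FZD3* and the transducer gene *DVL3*, which were among the most abundant, had log2-fold changes of −0.19 (SE 0.29) and 0.11 (SE 0.30), with overlapping groups. *DVL1*, which encodes a protein that passes the signal from Frizzled receptors to the destruction complex, was found at 37.5 and 30.1 CPM in the control and at 53.2, 86.5, and 91.9 CPM in the knockout pools. All knockout pools were higher, and the log2-fold change of 1.19 (SE 0.35) did not pass the test by edgeR (adjusted p = 0.0792). It was the call of DESeq2.

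**Figure D3:**
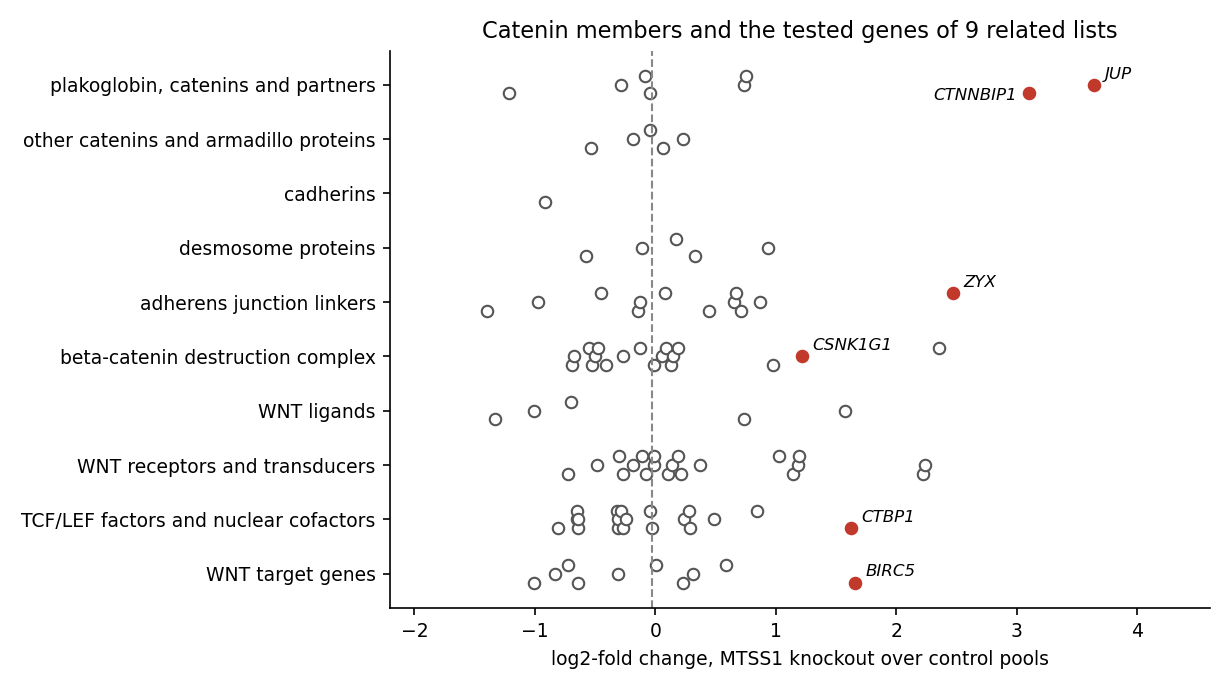
Log2-fold change between knockout and control pools for the 8 genes (top) and for the tested genes of 9 lists of partners. Each circle is 1 gene, red circles are called genes, and the dashed line is the median of all tested genes (−0.03). For the 8 genes, which were chosen with this contrast known, the red color is no test result. Circles are shifted vertically to keep them apart. The 4 called partners are *ZYX*, *CSNK1G1*, *CTBP1*, and *BIRC5*, all higher in the knockout.

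To see whether the difference extended along the chromosome, genes within 200 kb of *JUP* were examined. Of 24 annotated genes 10 were in the table and 8 were tested. None was called by edgeR, 2 had an unadjusted p below 0.05, and DESeq2 called none; the lowest adjusted p by edgeR was 0.142. Log2-fold changes ran from −1.59 (*KLHL11*) to 0.85 (*CNP*), against 3.64 for *JUP*. *P3H4*, the nearest tested gene, 15.0 kb from *JUP*, had a log2-fold change of −0.15 (SE 0.37), and *FKBP10*, 25.7 kb away, of −0.32 (SE 0.37). On the other side of *JUP* the nearest tested gene was *EIF1*, 61.9 kb away, at 0.62 (SE 0.30). Without control pool 1, *NT5C3B* was called as higher.

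**Figure D4:**
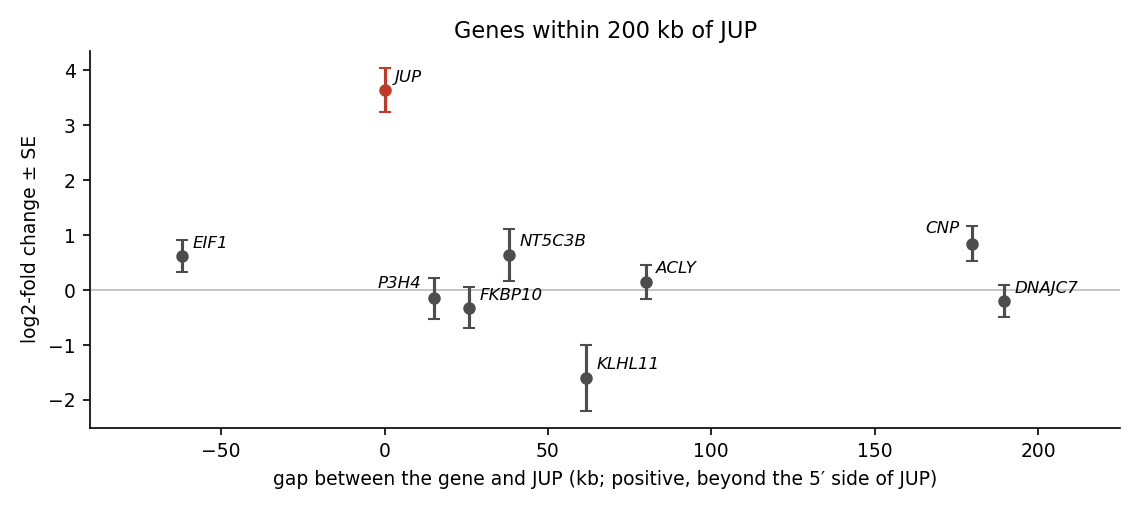
Log2-fold change with its SE for *JUP* and the 8 tested genes within 200 kb, against the gap between gene ends in kb, with genes beyond the 5′ end of *JUP* at positive values. *JUP* stands at 3.64 and all neighbours lie between −1.59 and 0.85.

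Genes with a course like that of *JUP* across the 5 libraries were sought by the Euclidean distance between log2 CPM values centred on each gene's mean. The 5 nearest were *LRRC42*, *PIM2*, *UBE2SP2*, *HSF2*, and *RSAD1*, at distances of 0.459 to 0.746. *LRRC42*, the nearest, was found at 7.82 and 15.2 CPM in control pools 1 and 2 and at 152, 193, and 163 CPM in knockout pools 1, 2, and 3. The serine/threonine kinase gene *PIM2* ran from 54.7 and 82.2 CPM in the control to 729, 647, and 803 CPM in the knockout pools. Like *JUP*, both had their lowest value in control pool 1. *UBE2SP2* is a processed pseudogene, and its reads cannot be told apart with certainty from those of its parent gene. *CTNNBIP1* was in place 32, at a distance of 1.07 and with Pearson's r = 0.98 to *JUP*. These r values describe 5 libraries in 2 groups, where any gene that differs strongly between the groups has a high r: 64 genes had r above 0.99 to *JUP*, and by r only 1 of the 5 nearest genes stayed among the first 5.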

How the data were processed

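RNA was measured in 5 TF-1 libraries, 2 control and 3 *MTSS1* knockout pools. The authors prepared QuantSeq 3′ libraries, aligned reads to GRCh38 with HISAT2, removed reads mapping to several places, and deposited raw counts per Ensembl gene, with no normalization. Per the submitters' processing notes, versions were HISAT2 2.1.0, SAMtools 1.10, and FastQC 0.11.9. The counting program, its use of strand, and the annotation are not given in the sources used here. Removing shared reads lowers counts of genes with close copies.

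The quasi-likelihood test of edgeR 4.0.16, run in R 4.3.3, was applied to the counts (TMM, filterByExpr with a minimum count of 10, condition as the only term, all 5 libraries), which kept 14391 genes. P-values were adjusted by Benjamini-Hochberg over all tested genes. Genes were called at an adjusted p below 0.05 with an absolute log2-fold change over 1, as in the study. CPM used TMM factors, and log2 CPM a prior count of 2. Each SE was derived from the fold change and its F statistic. Gene symbols, found for 27211 genes, and positions come from GENCODE 44, and start windows from RefSeq. Alternatives included DESeq2 1.42.0 and limma-voom (limma 3.58.1). Tables were made in Python 3.11.15.

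The 8 genes, the lists, and the tests were chosen with earlier results of these data known. Named genes are the 8 genes, *MTSS1*, in each list the called genes and the 3 most abundant tested genes, the 5 genes nearest to *JUP* in pattern, and neighbours of *JUP* that were called. Other names, such as *LEF1*, *CDH1*, *EPCAM*, and *KLHL11*, were added after their values were seen.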

Additional observations from a re-analysis of the deposited data

How the results depend on the processing

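The number of genes called, 745, became 1272 with DESeq2, 1374 with no filter on low counts, 480 with libraries thinned to the smallest total, and 111 to 1349 with 1 pool left out (111 without knockout pool 1 and 1349 without control pool 1). With scaling by library totals alone, the median over all tested genes was −0.17, with 800 calls, 71.0% of them higher, against 80.5% with TMM; with no filter the median was 0.12. The 4 calls among pathway genes became 7 with no filter, 2 in thinned libraries, and 0 to 4 with 1 pool left out. The 0 calls beside *JUP* became 0 to 1 with 1 pool left out, and 1 of the 5 genes nearest to *JUP* remained with r in place of distance. Log2-fold changes with 1 pool left out ran from 3.29 to 4.16 for *JUP*, 3.09 to 3.18 for *CTNNBIP1*, and −0.32 to 0.34 for *CTNNA1*. With library totals alone they were 0.60 for *CTNNB1*, −0.41 for *CTNND1*, and 2.97 for *CTNNBIP1*, and with no filter 0.88, −0.13, and 3.25, and 0.059 for *APC*. In thinned libraries *CTNNBIP1* stood at 2.76. The cause of these shifts was not tested. Pools numbered 1 and 2 occur in both groups, but no source says that equal numbers were handled together, and the differences between pools 1 and 2 had r = 0.17 between the groups across genes. With the number as a replicate block, 1094 genes were called, *JUP* stood at 3.56 and *CTNNBIP1* at 3.14, and 5 pathway genes were called, with *PARD3* and *WNT5B* lower and *CSNK1G1* lost. Depth limits *CTNNBIP1* (13 counts in each control library) and the cadherins.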

Other observations

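The genes nearest to *CTNNBIP1* in pattern were looked up after its values were seen. The 5 nearest by distance over the 5 libraries were *HSF1*, *DCPS*, *LAGE3P1*, *RSAD1*, and *EPHB4*, of which *RSAD1* is also among the 5 nearest to *JUP*. *DCPS*, which encodes the scavenger enzyme that breaks down mRNA caps, was found at 9.07 and 7.45 CPM in control pools 1 and 2 and at 82.4, 79.4, and 69.8 CPM in knockout pools 1, 2, and 3. The ephrin receptor gene *EPHB4* ran from 31.0 and 33.1 CPM in the control to 208, 265, and 275 CPM in the knockout pools. *HSF1*, a heat shock factor, ran from 2.50 and 2.09 CPM to 17.8, 18.8, and 17.7 CPM, and *HSF2*, its relative, is among the 5 genes nearest to *JUP*. The processed pseudogene *LAGE3P1* held 0 counts in both control libraries and 16, 13, and 13 counts in the knockout libraries.

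The share of *CTNNBIP1* in the counts of *CTNNBIP1* and *TCF7L2*, whose products compete for β-catenin, was 1.95% (95% Wilson interval 1.14 to 3.31) and 2.47% (1.45 to 4.18) in the control pools. It was 39.9% (36.2 to 43.7), 23.2% (20.5 to 26.1), and 35.2% (31.3 to 39.4) in knockout pools 1, 2, and 3. Both genes had been seen to differ in opposite directions, so the change in this share follows from values given above and adds no support. The intervals cover counting error only.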
